A study of Homo sapiens with 6 samples.

Results

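The genes described here are 10 feedback and output genes of the ERK pathway: the Sprouty genes SPRY1, SPRY2 and SPRY4, the SPRED genes SPRED1, SPRED2 and SPRED3, the PEA3 group of ETS transcription factors ETV1, ETV4 and ETV5, and PHLDA1. They were chosen by gene symbol, and all 10 were found among the 58825 genes of the deposited table. The cells were 143B, a human osteosarcoma line that descends from the HOS line. Poly(A) RNA was sequenced from 3 libraries of cells given a negative control siRNA and 3 of cells given an siRNA against SIGLEC15, a sialic acid-binding receptor, each at 80 nmol/L for 36 h. All 6 libraries share the line, the serum-containing medium and the transfection reagent, and the labels name no untransfected cells and no separate cultures. The p-values thus rest on how far these libraries vary, and that variation can be technical.

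ERK is the last kinase of the cascade that runs from receptor tyrosine kinases through RAS, RAF and MEK. Its activity switches on genes that feed back on the cascade. Sprouty proteins act near the receptor and on RAS activation, and SPRED proteins recruit the RAS GTPase-activating protein neurofibromin to the membrane, so both restrain RAS. ETV1, ETV4 and ETV5 bind DNA through an ETS domain and carry part of the transcriptional output of growth factor signalling, and the repressor Capicua (CIC), which ERK signalling relieves, is known to keep them low. PHLDA1 is a pleckstrin homology-like protein whose transcript is used, with those of SPRY2, SPRY4, ETV4 and ETV5, as a readout of MEK and ERK activity.

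RefSeq promoter windows (GRCh38.p14), which run from 250 bases before a start site to 50 after it, were found for 8 of the 10 genes, 18 windows in all. ETV4 and ETV5 had no window, so their promoters were not searched. Of the 18 windows, 3 are shown, those of ETV1 and SPRY1 because these genes passed the test, and that of SPRED3 because it holds the other Capicua octamer. Each of these 3 genes has more windows than are shown. The ETV1 window is chr7:13991376-13991675 on the minus strand and the SPRY1 window is chr4:123396545-123396844 on the plus strand. The start site of each window is the 5′ end that the deposited table gives for the gene. The SPRED3 window is chr19:38389541-38389840 on the plus strand, at a start site 1370 bases inside the gene of the table. Capitals mark the octamers TGAATGGA and TGAATGAA, which Capicua binds, and the AP-1 element TGANTCA.
ETV1: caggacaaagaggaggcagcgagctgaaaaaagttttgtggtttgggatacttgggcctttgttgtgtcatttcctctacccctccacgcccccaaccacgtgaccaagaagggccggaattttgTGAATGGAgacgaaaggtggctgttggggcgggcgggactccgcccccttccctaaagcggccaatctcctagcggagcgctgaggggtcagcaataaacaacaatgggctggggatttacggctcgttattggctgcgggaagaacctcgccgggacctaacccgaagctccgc
SPRY1: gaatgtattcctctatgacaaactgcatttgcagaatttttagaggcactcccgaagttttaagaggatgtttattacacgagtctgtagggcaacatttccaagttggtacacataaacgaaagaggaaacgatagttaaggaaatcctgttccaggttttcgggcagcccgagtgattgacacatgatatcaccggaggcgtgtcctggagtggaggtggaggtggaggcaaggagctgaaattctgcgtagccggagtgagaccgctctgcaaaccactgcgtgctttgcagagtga
SPRED3: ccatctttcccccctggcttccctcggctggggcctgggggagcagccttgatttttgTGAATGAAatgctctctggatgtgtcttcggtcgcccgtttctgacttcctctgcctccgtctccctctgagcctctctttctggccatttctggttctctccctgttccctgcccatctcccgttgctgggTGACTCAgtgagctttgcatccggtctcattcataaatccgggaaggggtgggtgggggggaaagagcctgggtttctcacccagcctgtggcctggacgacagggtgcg

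On both strands, TGAATGGA was found in 1.03% of the 35116 promoter windows in the RefSeq table and, among the 18 windows of these genes, in 1, where it begins 125 bases before the ETV1 start site. TGAATGAA was found in 1.65% of all windows and in 1 of the 18, where it begins 192 bases before the SPRED3 start site. The AP-1 element was in 7.71% of all windows and in 2 of the 18, 1 of SPRED2 and the SPRED3 window shown, where it begins 60 bases before the start site. The ETS consensus CCGGAAGT, in 4.14% of all windows, and the cAMP response element TGACGTCA, in 1.85%, were in none of the 18. The short ETS core GGAAG, which is part of CCGGAAGT, was in 71.9% of all windows and in 16 of the 18. A match describes these letters only.

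The libraries held between 57966691 and 67655254 gene counts. SIGLEC15, the siRNA target, had 12, 10 and 22 counts in control libraries 1, 2 and 3 and 12, 8 and 6 in SIGLEC15 siRNA libraries 1, 2 and 3, so the groups overlapped and the difference did not pass (log2 fold change -0.82, SE 0.598, edgeR adjusted p = 0.529). Of 11 osteoblast and mesenchymal markers 10 were in the table: VIM (mean 481.8 FPKM in control libraries), SPARC (62.6), SPP1 (15.8), DLX5 (4.24) and MSX2 (3.77) were detected, while COL1A1 (1.1) and RUNX2 (0.327) were low and ALPL, BGLAP and COL1A2 were at or below 0.146. Of the 9 that were tested, 2 were called higher and 0 lower, and 6 had a log2 fold change below 0 (median -0.14, against -0.0064 over all genes tested). The 2 called, the matrix genes SPARC and COL1A1, rose with the SIGLEC15 siRNA (log2 fold changes 0.80 and 0.69; the COL1A1 call ended in 6 of 13 alternatives), and what part this has in the other results was not tested. RUNX2 was not called (log2 fold change 2.0, edgeR adjusted p = 0.113). It had 0.352, 0.365 and 0.265 FPKM in control libraries and 2.03, 0.373 and 1.53 FPKM in SIGLEC15 siRNA libraries. Summed FPKM of 6 epithelial markers lay between 210.9 and 254.9 in control and between 222.6 and 242.9 in SIGLEC15 siRNA libraries, nearly all of it KRT18 and KRT8, with CDH1 at 0 counts throughout. Of 6 blood cell markers, PTPRC and CD3E were at 0 counts in every library and CD68 gave nearly all of the summed FPKM (16.4 to 22 against 11.2 to 18.4). The 5 endothelial markers summed to between 0.0731 and 0.159 FPKM in control and between 0.075 and 0.181 in SIGLEC15 siRNA libraries.

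By transcript level per length (FPKM), the 10 genes spanned from 0.152 to 37.2 over all libraries. In the control group PHLDA1 had the highest mean, 27.9 FPKM, but its libraries ranged from 13.9 to 37.2 and overlapped those of ETV5 (25.0 to 26.0). Below these came ETV4 (21.3 to 21.9), SPRED2 (18.9 to 20.9), SPRY4 (17.3 to 18.8), SPRED1 (15.6 to 16.4) and SPRY2 (10.8 to 11.1), and the ranges of neighbours in this order did not overlap. ETV1 (4.34 to 5.14), SPRED3 (0.642 to 1.47) and SPRY1 (0.44 to 0.562) were the 3 lowest, again without overlap. With the SIGLEC15 siRNA, ETV4 came first (22.5 to 26.3), and the ranges of ETV5, SPRY4, PHLDA1 and SPRED2 each overlapped that of the next gene in the order, which for SPRED2 is SPRED1. SPRY1 (0.774 to 1.28) and SPRED3 (0.152 to 1.2) overlapped at the bottom of the order.

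**Figure D1:**
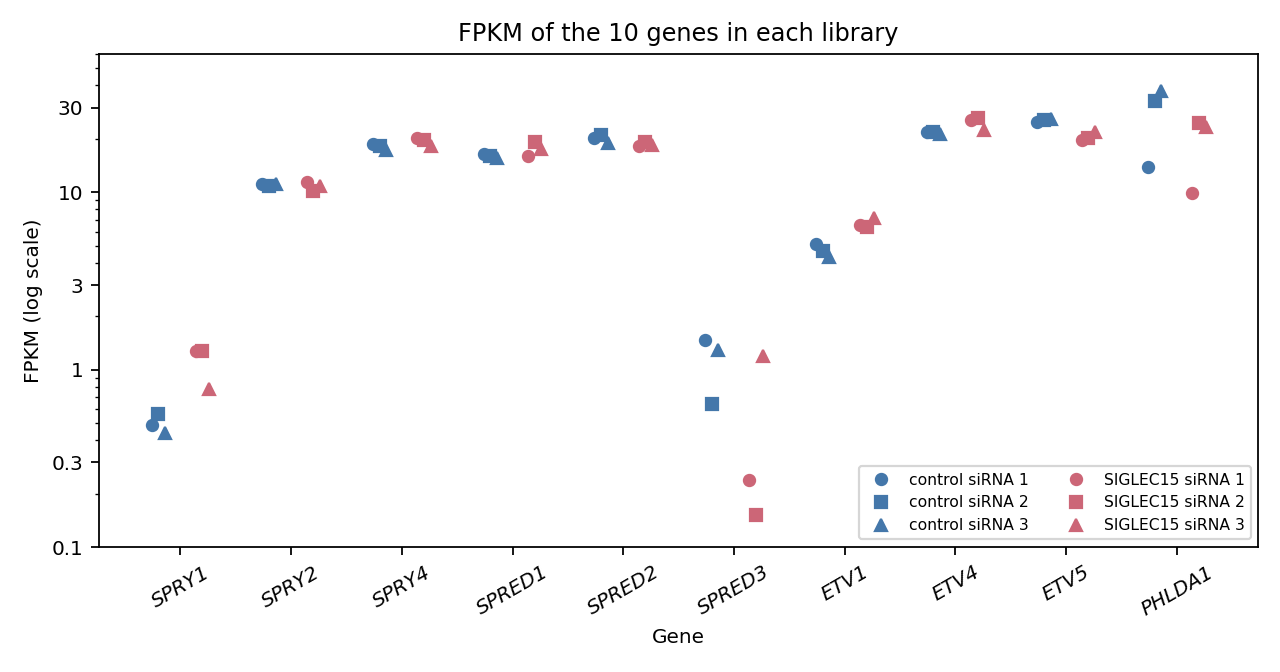
FPKM of each gene on a log axis, with 1 point per library (blue for control siRNA, red for SIGLEC15 siRNA; circle, square and triangle for replicates 1, 2 and 3). SPRY1 and ETV1 sit higher in all 3 SIGLEC15 siRNA libraries, both circles of PHLDA1 lie below its other points, and SPRED3 scatters from 0.152 to 1.47 FPKM.

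The comparison of SIGLEC15 siRNA with control siRNA asks how these genes differ once SIGLEC15 is targeted. SPRY1 and ETV1 rose, by 2.22-fold and 1.42-fold, and the other 8 genes did not pass the test (edgeR, Benjamini-Hochberg adjusted p under 0.05 over all genes tested; n = 3 libraries per group). All 10 genes passed the filter on low counts. Of the 18910 genes tested, 4.65% were called changed, 2.22% higher and 2.43% lower; of the 10, 2 were called higher and 0 lower. At an unadjusted p under 0.05, 3 were higher (ETV4 is the added one) and 1, ETV5, was lower. The share of all genes at that unadjusted threshold was not counted, so these counts have no background to be read against. DESeq2, which called 17.1% of the genes it gave an adjusted p, called 2 higher and 1 lower, again ETV5. The CPM values of the groups did not overlap for 5 of the 10 genes, 3 higher and 2 lower, against 26.6% of all genes tested. The 10 genes had a median log2 fold change of 0.036, against -0.0064 over all genes tested, with 5 above and 5 below 0. In RNA from bulk cells, fewer cells with a transcript and less transcript per cell cannot be told apart.

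**Figure D2:**
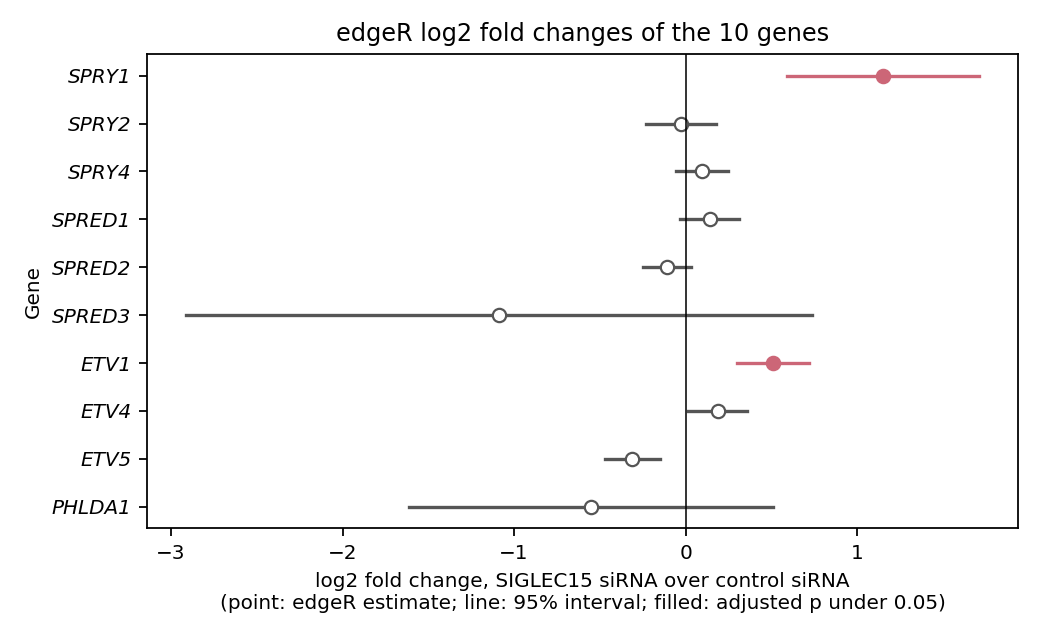
edgeR log2 fold change of SIGLEC15 siRNA over control siRNA (point) with its 95% interval (line) for each of the 10 genes; filled points have an adjusted p under 0.05. SPRY1 (1.15) and ETV1 (0.51) are filled, ETV5 (-0.31) lies on the other side of 0, and the intervals of SPRED3 and PHLDA1 are the widest.

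Among the Sprouty genes, SPRY1 (ENSG00000164056, chromosome 4, 123396795 to 123403755 on the plus strand; positions are those of the authors' table) was the weakly expressed one and the one that rose. It had 141, 158 and 130 counts in control libraries 1, 2 and 3 and 403, 349 and 247 counts in SIGLEC15 siRNA libraries 1, 2 and 3. Scaled to library size with TMM factors, as CPM, these are 2.28, 2.67 and 2.12 against 6.1, 5.93 and 3.68. Every SIGLEC15 siRNA library thus lay above every control library, with replicate 3 the lowest of its group. The means were 2.36 CPM ± 0.284 and 5.24 CPM ± 1.35 (SD, n = 3 each). The log2 fold change was 1.15 (SE 0.235, 95% interval 0.59 to 1.71, edgeR adjusted p = 0.0455). The adjusted p was close to the threshold. The call ended without control replicate 1, 2 or 3 (edgeR adjusted p = 0.138, 0.112 and 0.14), without SIGLEC15 siRNA replicate 1 or 2 (0.131 and 0.15) and with no filter on low counts (0.0721). It also ended with the replicate number as a block (edgeR adjusted p = 0.12) and without both libraries numbered 1 (0.251). SPRY1 thus passed in 3 of the 11 alternatives that gave a value, while its log2 fold change stayed between 1.00 and 1.35 in all of them.

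SPRY2 (ENSG00000136158, chromosome 13, 80335976 to 80341126, minus strand), which binds the ubiquitin ligase CBL after tyrosine phosphorylation, had 42.0, 41.0 and 43.0 CPM in control libraries and 44.1, 37.8 and 41.9 CPM in SIGLEC15 siRNA libraries. The groups overlapped, and the 95% interval of the log2 fold change ran from -0.23 to 0.18 (estimate -0.025, edgeR adjusted p = 0.915). The estimate is so near 0 that it turned to 0.034 without SIGLEC15 siRNA replicate 2. SPRY4 (ENSG00000187678, chromosome 5, 142310427 to 142326455, minus strand), the most abundant Sprouty gene per length in these cells, had 145.4, 141.4 and 136.6 CPM against 159.3, 150.6 and 143.3 CPM. Its log2 fold change was 0.098, with a 95% interval of -0.056 to 0.25 (edgeR adjusted p = 0.482), and SIGLEC15 siRNA replicate 3 lay within the control range. SPRY3, the remaining Sprouty gene and not among the 10, was low, between 1.25 and 1.98 CPM in control and between 1.07 and 1.45 CPM in SIGLEC15 siRNA libraries.

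SPRY1 made up 1.6%, 1.91% and 1.53% of the summed FPKM of SPRY1, SPRY2 and SPRY4 in control libraries 1, 2 and 3, and 3.88%, 4.11% and 2.59% in SIGLEC15 siRNA libraries 1, 2 and 3. The share was higher in all 3 SIGLEC15 siRNA libraries, by 1.85 percentage points on average (exact two-sided permutation test, p = 0.1, the lower limit of p for 3 against 3 libraries; 0.1 after adjustment over the 3 family shares tested). The sum itself was 29.5 FPKM ± 0.754 in the control group and 31.2 FPKM ± 1.44 with the SIGLEC15 siRNA (SD, n = 3 each). SPRY4 held 61.1% and 61.9% of it on average, so the family's level was set mainly by a gene whose groups overlapped.

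None of the SPRED genes passed the test, at an unadjusted p under 0.05 or in DESeq2. SPRED1 (ENSG00000166068, chromosome 15, 38252836 to 38357249, plus strand), the member whose loss causes Legius syndrome, had 150.0, 146.5 and 145.6 CPM in control libraries and 149.3, 174.0 and 162.4 CPM in SIGLEC15 siRNA libraries. SIGLEC15 siRNA replicate 1 lay within the control range and the other 2 above it (log2 fold change 0.14, 95% interval -0.035 to 0.31, edgeR adjusted p = 0.374). SPRED2 (ENSG00000198369, chromosome 2, 65310851 to 65432599, minus strand), which like SPRED1 binds neurofibromin, had 131.3, 136.7 and 125.4 CPM against 120.1, 123.0 and 121.6 CPM. All 3 SIGLEC15 siRNA values lay below the control values, but the gap was small (log2 fold change -0.11, 95% interval -0.25 to 0.032, edgeR adjusted p = 0.386), and in FPKM the groups overlapped.

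SPRED3 (ENSG00000188766, chromosome 19, 38388421 to 38399587, plus strand), a SPRED protein lacking a working KIT-binding domain, had the widest range of the 10 among the SIGLEC15 siRNA libraries (8.02-fold in CPM), while among the control libraries PHLDA1 did (2.72-fold, against 2.26-fold for SPRED3). It had 630, 266 and 559 counts in control libraries 1, 2 and 3 and 113, 62 and 566 counts in SIGLEC15 siRNA libraries 1, 2 and 3, which is 10.2, 4.5 and 9.13 CPM against 1.71, 1.05 and 8.44 CPM. SIGLEC15 siRNA replicates 1 and 2 were below every control library, while replicate 3 was at the control level, 6.11 times the mean of the other 2. The log2 fold change was -1.09 with a 95% interval of -2.91 to 0.74 (edgeR adjusted p = 0.516). Without SIGLEC15 siRNA replicate 3 it was -2.52 (edgeR adjusted p = 0.0583), and without SIGLEC15 siRNA replicate 2 it was -0.64 (adjusted p = 0.737), so single libraries decide the value. For SPRY1, ETV4 and ETV5 too, SIGLEC15 siRNA replicate 3 was the library of its group nearest to the controls, whereas for ETV1 it was the farthest.

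SPRED1 made up 43.1%, 42.5% and 43.6% of the summed SPRED FPKM in control libraries and 46.6%, 49.9% and 47.1% in SIGLEC15 siRNA libraries. The groups did not overlap, and the mean difference was 4.83 percentage points (exact two-sided permutation test, p = 0.1, the smallest possible). A higher share was not a higher SPRED1 level in every library. In SIGLEC15 siRNA library 1, SPRED1 had 16.0 FPKM, within the control range of 15.6 to 16.4, and the SPRED sum was at its lowest, 34.3 FPKM. The summed SPRED level was 37.1 FPKM ± 1.19 in the control group and 36.7 FPKM ± 2.18 with the SIGLEC15 siRNA (SD, n = 3 each). SPRED3 held 3.05% ± 1.17 of the sum in the control group and 1.44% ± 1.56 with the SIGLEC15 siRNA (SD, n = 3 each).

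The PEA3 genes were the family whose 3 members all had groups that did not overlap in CPM, against 26.6% of all genes tested. The 3 did not move one way, and only ETV1 was called. ETV1 (ENSG00000006468, chromosome 7, 13891229 to 13991425, minus strand) was the weakest of the 3. It alone of the 3 had promoter windows, so the Capicua octamer was not looked for in ETV4 or ETV5. ETV1 had 3613, 3155 and 3081 counts in control libraries and 5039, 4216 and 5526 counts in SIGLEC15 siRNA libraries. In CPM these are 58.3, 53.4 and 50.3 against 76.3, 71.6 and 82.4, with a clear gap between the groups. The means were 54.0 CPM ± 4.03 and 76.7 CPM ± 5.42 (SD, n = 3 each). The log2 fold change was 0.51 (SE 0.0879, 95% interval 0.30 to 0.72, edgeR adjusted p = 0.0277). ETV1 passed in 6 of 14 alternatives, with log2 fold changes of 0.43 to 0.57 in all of them. Its call ended without control replicate 1, 2 or 3 (edgeR adjusted p = 0.0528, 0.109 and 0.0872) and without SIGLEC15 siRNA replicate 1, 2 or 3 (0.0819, 0.0666 and 0.0763), fits that rest on 1 library fewer.

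ETV4 (ENSG00000175832, chromosome 17, 43527844 to 43546340, minus strand), first described as PEA3 and as E1AF, had 90.9, 91.5 and 90.1 CPM in control libraries and 107.7, 107.9 and 94.7 CPM in SIGLEC15 siRNA libraries. The control values were within 1.02-fold of each other, and all SIGLEC15 siRNA values lay above them, replicate 3 by the least. The log2 fold change of 0.19 (95% interval 0.016 to 0.36) did not pass (edgeR adjusted p = 0.22). ETV5 (ENSG00000244405, chromosome 3, 186046314 to 186110318, minus strand), also known as ERM, had 170.6, 175.0 and 180.7 CPM against 137.2, 135.2 and 151.4 CPM. All SIGLEC15 siRNA values lay below the controls, with a log2 fold change of -0.31 (SE 0.0675, 95% interval -0.47 to -0.15). Its edgeR adjusted p of 0.0531 missed the threshold, while DESeq2 (adjusted p = 0.000114), limma-trend on log2(FPKM + 1) (0.0345) and edgeR on genes with a mean of at least 5 FPKM (0.025) passed it as lower. ETV5 passed in 4 of 14 alternatives and in none of the fits that leave out 1 library, where its log2 fold change lay between -0.36 and -0.28.

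The summed FPKM of ETV1, ETV4 and ETV5 was 51.9 ± 0.284 in the control group and 52.0 ± 0.662 with the SIGLEC15 siRNA (SD, n = 3 each), while its make-up shifted. ETV5 held 48.1%, 49.0% and 50.4% of the sum in control libraries and 38.1%, 38.0% and 42.5% in SIGLEC15 siRNA libraries. ETV4 held 42.1%, 42.1% and 41.2% against 49.2%, 49.9% and 43.6%. ETV1 held 9.86%, 8.97% and 8.41% against 12.7%, 12.1% and 13.9%. In the control libraries ETV5 was the leading PEA3 transcript per length, and in the SIGLEC15 siRNA libraries it was ETV4. The ETV1 share was 3.81 percentage points higher on average (exact two-sided permutation test, p = 0.1, the smallest possible; 0.1 after adjustment over the 3 family shares). The log2 ratio of ETV1 to ETV5 in FPKM, a comparison added after the values were seen, was -2.29, -2.45 and -2.58 in control libraries and -1.58, -1.65 and -1.61 in SIGLEC15 siRNA libraries, a difference of 0.82. It was formed because ETV1 was higher and ETV5 lower in every SIGLEC15 siRNA library, so it restates those values and is given with no test.

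**Figure D3:**
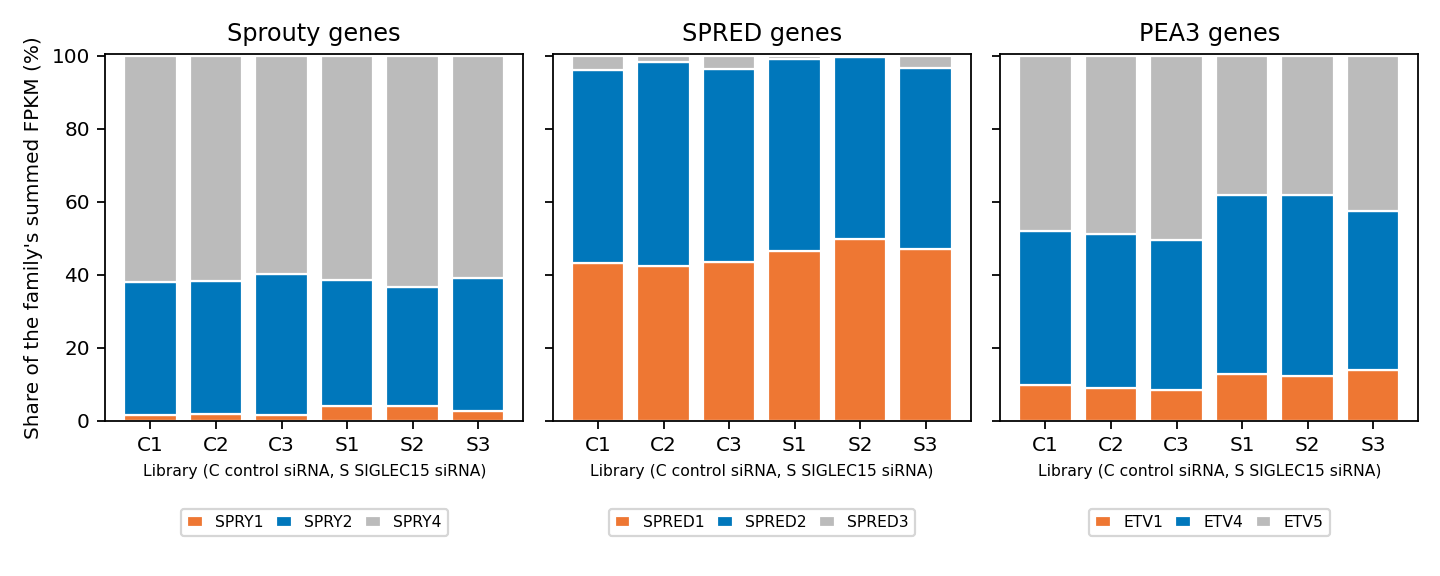
Share of each gene in the summed FPKM of its family, in percent, as stacked bars for control siRNA libraries (C1 to C3) and SIGLEC15 siRNA libraries (S1 to S3). In the PEA3 panel the ETV5 share drops from 48.1% or more to 42.5% or less, and in the Sprouty panel SPRY1 stays the smallest part at 4.11% or less.

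PHLDA1 (ENSG00000139289, chromosome 12, 76025447 to 76033932, minus strand) had 8221, 18495 and 22115 counts in control libraries 1, 2 and 3 and 6394, 13570 and 15083 counts in SIGLEC15 siRNA libraries 1, 2 and 3. In CPM these are 132.7, 313.1 and 361.4 against 96.8, 230.4 and 224.9. In both groups replicate 1 was the low library, by 2.54-fold below the mean of the other 2 among controls and by 2.35-fold in the SIGLEC15 siRNA group. The groups overlapped, and the log2 fold change of -0.55 had a 95% interval of -1.61 to 0.51 (edgeR adjusted p = 0.579). Between libraries of the same number, the control value was 1.37, 1.36 and 1.61 times the SIGLEC15 siRNA value for numbers 1, 2 and 3. Without both libraries numbered 1, an alternative added after the values were seen, the log2 fold change was -0.57 (edgeR adjusted p = 0.107). Without SIGLEC15 siRNA replicate 1 alone it was -0.25 and without control replicate 1 alone it was -0.87. What sets the number 1 libraries apart for this gene was not tested. The related genes PHLDA2 and PHLDA3 did not pass (log2 fold changes -0.042 and 0.44), and PHLDA2 had no such low library, at 55.4, 56.6 and 66.5 CPM in control and 59.5, 58.8 and 55.0 CPM in SIGLEC15 siRNA libraries.

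Of the 10 genes, 5 share no position with another gene of the table: SPRY1, SPRY2, SPRED1, SPRED3 and ETV1, among them both called genes. ETV4 lies wholly within the helicase gene DHX8 on the opposite strand, which had a log2 fold change of -0.067 (edgeR adjusted p = 0.817). ETV5 shares 4651 bases at its 5′ end with the same-strand gene DGKG, a diacylglycerol kinase, which had a mean of 3.75 CPM against 5.84 CPM and a log2 fold change of 0.64 (edgeR adjusted p = 0.0589), opposite in sign to ETV5 and at a far lower level. Whether counting used strand is not given in the sources used here. Without it, reads from positions where exons of ETV4 and DHX8 overlap could not be told apart. Only whole gene spans were compared, so whether their exons overlap was not examined. SPRY4 overlaps the antisense gene SPRY4-AS1, whose mean was 1.04 CPM in control and 1.16 CPM in SIGLEC15 siRNA libraries. The other overlapping genes, in SPRY4, SPRED2, ETV5 and PHLDA1, had at most 0.171 CPM in either group.

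The rest of the pathway was described by gene lists, which were drawn up with earlier results of these data known. Their counts thus describe the listed genes and do not test the lists. Of 22 other ERK output genes, all tested, 5 fell and 1 rose, against 2.43% lower and 2.22% higher over all genes tested. Their median log2 fold change was -0.076, and DESeq2 called 6 lower and 3 higher, against 17.1% of all genes in either direction. The 5 that fell were the phosphatase genes DUSP1, DUSP5 and DUSP6, the transcription factor gene EGR1 and ARC, a serum response gene. The one that rose was the cyclin gene CCND1 (log2 fold change 0.32). Not all phosphatase genes fell: DUSP2 and DUSP4 had log2 fold changes of 1.01 and 0.30 and did not pass (edgeR adjusted p = 0.0635 and 0.0552). DUSP6, which dephosphorylates ERK, had 286.3, 264.4 and 279.4 CPM in control libraries and 174.6, 172.8 and 165.7 CPM in SIGLEC15 siRNA libraries, and its log2 fold change was -0.69 (SE 0.0591; adjusted p = 0.00326 by edgeR). ARC had 22.8, 21.5 and 21.3 CPM against 13.2, 11.3 and 11.9 CPM, and its log2 fold change was -0.85 (SE 0.103; adjusted p = 0.00874 by edgeR). SPRY1 and ETV1 rose in the libraries in which these genes fell. The calls of CCND1 and DUSP5 ended in 8 and 6 of 14 alternatives; without both libraries numbered 1, DUSP1 alone of these 6 genes passed (edgeR adjusted p = 0.0494).

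Of 15 genes of the cascade from RAS to ERK, NRAS alone was called (log2 fold change 0.31, SE 0.0591, edgeR adjusted p = 0.0352), and the list's median was 0.079. The NRAS call ended in 8 of 14 alternatives. Among the 15 genes, 3 were higher and 1 lower at an unadjusted p under 0.05, and DESeq2 called 2 higher and 1 lower. Over all genes DESeq2 called 17.1%, and the share at the unadjusted threshold was not counted. Of 18 partners of Sprouty and SPRED proteins, among them NF1, CBL and GRB2, 0 were called by edgeR; 2 were higher and 1 lower at an unadjusted p under 0.05, and DESeq2 called 1 higher and 1 lower. Their median log2 fold change was 0.15.

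Of 23 tested receptor tyrosine kinases and growth factors, 2 fell, the growth factor gene FGF2 (log2 fold change -0.66, SE 0.114) and the receptor gene AXL (-0.31), and the receptor gene IGF1R rose (0.38). The median was 0.027. By an unadjusted p under 0.05, 4 of these genes were higher and 8 lower, and DESeq2 called 2 higher and 8 lower. For this list and the next, DESeq2 called 17.1% of all genes, and the unadjusted share of all genes was not counted. The calls of FGF2, AXL and IGF1R ended in 8 of 13, 9 of 14 and 8 of 14 alternatives. FGF2, whose signalling induces Sprouty and PEA3 genes in many cells, had 26.5, 29.1 and 25.0 CPM in control libraries and 15.2, 17.8 and 18.1 CPM in SIGLEC15 siRNA libraries. Of 7 PEA3 regulators, DDB1 and CUL4A fell (log2 fold changes -0.40 and -0.38, edgeR adjusted p = 0.0202 each), and both calls ended in 7 of 14 alternatives. Both are subunits of the ubiquitin ligase that degrades PEA3 proteins. COP1, its substrate receptor, had a log2 fold change of 0.0031 (edgeR adjusted p = 0.992). ATXN1 and ATXN1L, also on this list, had log2 fold changes of 0.45 and 0.44 and did not pass (edgeR adjusted p = 0.0589 and 0.0556). On the list, 2 genes were higher and 2 lower at an unadjusted p under 0.05, and DESeq2 called 2 higher and 2 lower. CIC itself did not pass, at 38.0, 34.9 and 34.3 CPM in control and 38.8, 42.1 and 41.8 CPM in SIGLEC15 siRNA libraries (log2 fold change 0.20, edgeR adjusted p = 0.264).

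Of 15 tested other ETS factors, ETS1 fell (log2 fold change -0.30, SE 0.0591, edgeR adjusted p = 0.0388), a call that ended in 9 of 14 alternatives, and the median was 0.026. Of this list 0 were higher and 4 lower at an unadjusted p under 0.05, and DESeq2 also called 0 higher and 4 lower. ETS1 had 169.3, 158.6 and 157.1 CPM in control libraries and 131.2, 133.3 and 128.5 CPM in SIGLEC15 siRNA libraries. Of 13 tested genes described elsewhere as PEA3 targets, the cyclooxygenase gene PTGS2 and the adhesion gene ICAM1 rose (log2 fold changes 1.22 and 0.76), both also known as NF-kB response genes, and the median was 0.15. The ICAM1 call ended in 6 of 14 alternatives. Among the 13 genes, 4 were higher and 3 lower at an unadjusted p under 0.05, and DESeq2 called 4 higher and 2 lower. The median over all genes tested, for comparison with these lists, was -0.0064. DESeq2 called 17.1% of all genes, and the share of all genes at an unadjusted p under 0.05 was not counted.

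**Figure D4:**
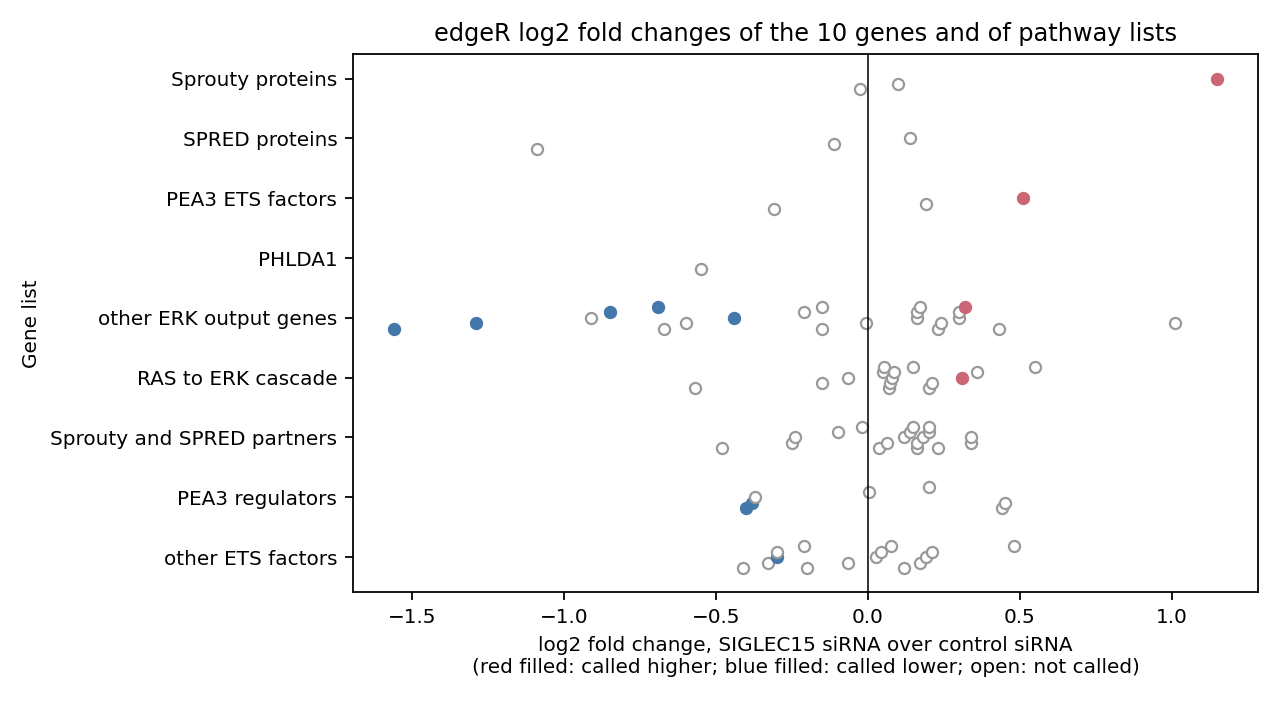
edgeR log2 fold change of every tested gene of the Sprouty, SPRED and PEA3 families, PHLDA1 and 5 pathway lists; filled red points were called higher, filled blue points lower, and open points were not called. SPRY1 (1.15) and ETV1 (0.51) lie right of 0, and 5 of the 22 other ERK output genes are filled on the left.

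The genes whose log2 CPM followed the called genes most closely over the 6 libraries were, for SPRY1, LIMD2 (Pearson r = 0.993) and PIP4P1 (0.991), and for ETV1, CLCN6 (0.999) and ME1 (0.995). They were ranked among 9455 and 9454 protein-coding genes with a mean of at least 10 CPM. With 6 points that share 2 groups, such values describe the libraries only. Of these genes ME1, the cytosolic malic enzyme, rose (log2 fold change 0.52, edgeR adjusted p = 0.022), a call that ended in 8 of 14 alternatives, with 47.9, 44.2 and 43.8 CPM in control libraries and 64.7, 60.3 and 70.2 CPM in SIGLEC15 siRNA libraries. LIMD2, PIP4P1 and CLCN6 did not pass (adjusted p = 0.0651, 0.0895 and 0.0504). LIMD2 had 19.0, 20.6 and 19.0 CPM against 34.9, 34.9 and 24.2 CPM, with SIGLEC15 siRNA replicate 3 nearest to the controls as for SPRY1.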

How the data were processed

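The authors deposited raw counts per gene and FPKM values for the 6 libraries in one table, per the file headers. HISAT, StringTie and edgeR appear in the submitters' processing notes. Their roles, the genome build, the strand setting and the counting method: not given in the sources used here. Of the 10 genes, 3 have exactly the GENCODE 29 coordinates, and positions are printed as the table gives them (0 sample columns were left unmatched).

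Counts were fitted over the whole table with edgeR 4.0.16 in R 4.3.3: TMM scaling after filterByExpr (at least 10 counts, total of at least 15), then the quasi-likelihood F test over all 6 libraries without covariates, with Benjamini-Hochberg adjustment and a threshold of 0.05. Each SE was obtained from the log2 fold change and its F statistic. Library totals were 57966691 to 67655254 counts. The SE also rests on the spread between libraries. It was 0.446 for PHLDA1, at 6394 to 22115 counts, and 0.235 for SPRY1, at 130 to 403 counts. Family shares use the authors' deposited FPKM values and exact permutation tests (SciPy 1.17.1). Alternatives were DESeq2 1.42.0, median-of-ratios size factors, 2 filters, limma-trend (3.58.1) on log2 FPKM with a pseudocount of 1 or 0.1 for genes whose FPKM averaged 1 or more, the replicate number as a block and each library left out. The edgeR fit was tested on simulated data. Named were the 10 genes, SIGLEC15, up to 6 called genes per list, the 2 closest genes per called gene and genes that overlap the 10; others are marked where named, except uncalled genes given to describe a list or the cell line. Of the markers 1 is not analysed here. The genes and lists were chosen with earlier results of these data known.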

Additional observations from a re-analysis of the deposited data

How the results depend on the processing

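Across the 14 alternative fits, the 10 genes gave 134 log2 fold changes, of which 113 kept their direction and side of the threshold, 16 lost a call, 4 gained one and 1 changed sign, SPRY2 without SIGLEC15 siRNA replicate 2 (-0.08 to 0.034 over the fits that leave out 1 library). DHX8, which overlaps ETV4, changed sign without control replicate 1 (0.025), without SIGLEC15 siRNA replicate 2 (0.0098) and without both libraries numbered 1 (0.019), a setting added after the data were seen (-0.14 to 0.025 over the fits that leave out 1 library). The number of changed genes in the whole table was 879; DESeq2 called 2916, the replicate block 50 and the fit without both libraries numbered 1 called 51. How many genes these calls share was not counted; the cause for DESeq2 was not tested, and the fit without number 1 has 2 libraries fewer. Leaving out 1 library at a time gave 260 to 431. Among the 10 genes 2 were called; no filter on low counts gave 1, the replicate block 0, the fit without both libraries numbered 1 gave 0, and leaving out 1 library at a time gave 0 to 1. SPRY1 and SPRED3 gave no value with a mean FPKM minimum of 1 or 5, where the 2 changed genes were ETV1 and ETV5. Deviations from the group means were not shared by libraries of the same number (r = -0.0489, 0.0111 and -0.0626), and 1 of 6 libraries correlated best with its own number, so the block has no support as a pairing. The ETV1 share of PEA3 FPKM, 3.81 percentage points higher, was 6.99 points higher as a share of counts, which are not scaled for length. Leaving out 1 library at a time gave differences of 3.32 to 4.21 points for ETV1, 1.55 to 2.32 for SPRY1 and 3.8 to 5.49 for SPRED1. Counting depth limits SIGLEC15, at 6 to 22 counts, more than any of the 10 genes.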

Other observations

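PHLDA1 was low in the libraries numbered 1 of both groups. Of 9895 tested genes with a mean of at least 10 CPM, 16 were at least 1.5-fold below both other libraries of the group in number 1 of both groups, among them PHLDA1, the stress kinase gene MAPK14, the collagen receptor gene DDR2 and the corepressor gene NRIP1. The same count was 17 for the libraries numbered 2 and 16 for those numbered 3, so number 1 does not stand apart by this count. These genes were named after their values were seen.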
